A study of Homo sapiens with 6 samples.

Results

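Ribosome biogenesis factors are the proteins that make a ribosome without being part of it. Messenger RNA of 43 such factors was followed here, a list of genes given by name, and 41 of them had a probe set among 19779 genes tested. GNL3 and DDX18 were not analysed here, because no probe set of theirs was named in the platform table. Each factor was read from its brightest probe set by mean log2 value, including probe sets that list the gene together with others. The cells were MOLM-14, an established line of acute myeloid leukaemia with an MLL-AF9 fusion. All cells grew in the same serum-containing medium and were compared after 3 h with 25 nM cortistatin A (CA), a steroidal inhibitor of the Mediator kinases CDK8 and CDK19, or after 3 h with the solvent dimethyl sulfoxide (DMSO). Each of the 2 groups had 3 samples, each on its own Affymetrix U133 Plus 2.0 array. The wells were plated in triplicate from 1 cell line and no separate cultures are named, so the spread behind the p-values is that of these samples alone and may be only technical.

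Ribosome production starts in the nucleolus, where RNA polymerase I transcribes a long precursor of the ribosomal RNAs. Small nucleolar ribonucleoproteins (snoRNPs) modify that precursor, a large assembly called the small subunit processome folds and cuts it, and separate sets of factors finish the small and the large subunit and release them for export. Rapidly growing leukaemia cells make many ribosomes, and many of these genes are known targets of the transcription factor MYC. The arrays measured the messenger RNA of the factors, not ribosomal RNA or ribosome number.

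The 6 arrays were alike, with median log2 values between 5.03 and 5.08 and no pairwise correlation under 0.996. On the first principal component over the genes, which held 31.6% of the variance, CA replicate 3 lay at 19.7 and the other arrays between -8.25 and 0.72. Markers of myeloid leukaemia cells differed widely in brightness. DMSO means were 12.46 for LYZ and 10.32 for FLT3, but 6.32 for MPO, 5.49 for SPI1 and 4.08 for KIT. Outside that list, the epithelial marker KRT18 stood at 9.27 and the NK cell marker NKG7 at 7.63. Of 11 measured myeloid markers, 10 were above the median probe set of the array, against 3 of 7 markers of T, NK or B cells, 3 of 4 of erythroid cells and 4 of 7 of epithelial cells or fibroblasts. That median was 5.05, a low level that some markers of every list passed. Of all these markers CEBPA was the single one past the test.

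None of the 41 factors passed the test for a difference between CA and DMSO (limma, adjusted p under 0.05 over all genes tested). Over all genes 0.895% passed. The messenger RNAs lay slightly higher in CA as a list: 35 of 41 had a mean above that in DMSO, which is 85.4% against 51.7% of all genes. The median log2 change was 0.042, or a few percent, against 0.0038 over all genes. Without probe sets ending in _x_at, _s_at or _a_at, which can match several transcripts, 22 of 34 factors lay above 0 and the median was 0.022. That setting left out PPAN, LYAR, FBL, NHP2, NOP14, NOP56 and NPM1. It also moved some factors to dim probe sets, such as WDR3 (mean log2 11.05 to 3.93) and NCL (12.64 to 3.96). At an unadjusted limma p under 0.05, 5 factors were higher in CA (12.2%) and 0 were lower, while 7.1% of all genes were higher and 4.5% lower. The 5 were PPAN, BYSL, NOP2, LYAR and WDR3, and 3 factors were higher when DMSO replicate 1 or 3 or CA replicate 1 or 2 was left out. With an intensity trend and a robust prior 12 were higher and 1 lower, and without dim probe sets 9 were higher. The shares of 7.1% and 4.5% belong to the fit reported, and the same shares in these other fits are not given here. All 3 CA arrays lay above all 3 DMSO arrays for 15 factors (36.6%), which held for 11.8% of all genes. All 3 lay below for 1 factor (2.44%), against 7.53% of all genes. Among cytosolic ribosomal proteins, with a median log2 change of 0.0060, 19.6% lay above and 7.84% below. The shares over all genes include dimmer and more variable genes, and no share over equally bright genes was taken. The factors share the 6 arrays, and the list was chosen with earlier results of these data known. These shares are therefore a description of the list and carry no test. In such bulk samples, less RNA per cell and fewer cells with the RNA cannot be told apart, and a shift common to every gene would be scaled away in the deposited values.

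The 95% confidence intervals were narrow. For all 41 factors the interval lay inside a 1.5-fold change in either direction, and for 38 it lay inside a 1.25-fold change. The exceptions to the narrower bound were PPAN, NOP2 and BYSL. The median standard error of the log2 change was 0.045 for the factors and 0.071 for all genes, and all 41 probe sets were brighter than the median probe set. The median SD between arrays was 0.032 in DMSO and 0.033 in CA for the factors, against 0.069 and 0.091 over all genes. The calls for the leading factors differed between fits. With a spread that follows signal intensity and a robust prior, PPAN, BYSL and NOP2 passed in limma (adjusted p = 0.0039, 0.0127 and 0.0224), and without dim probe sets PPAN and BYSL passed (adjusted p = 0.0267 and 0.0485). In these fits 2.77% and 2.81% of all genes passed.

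**Figure D1:**
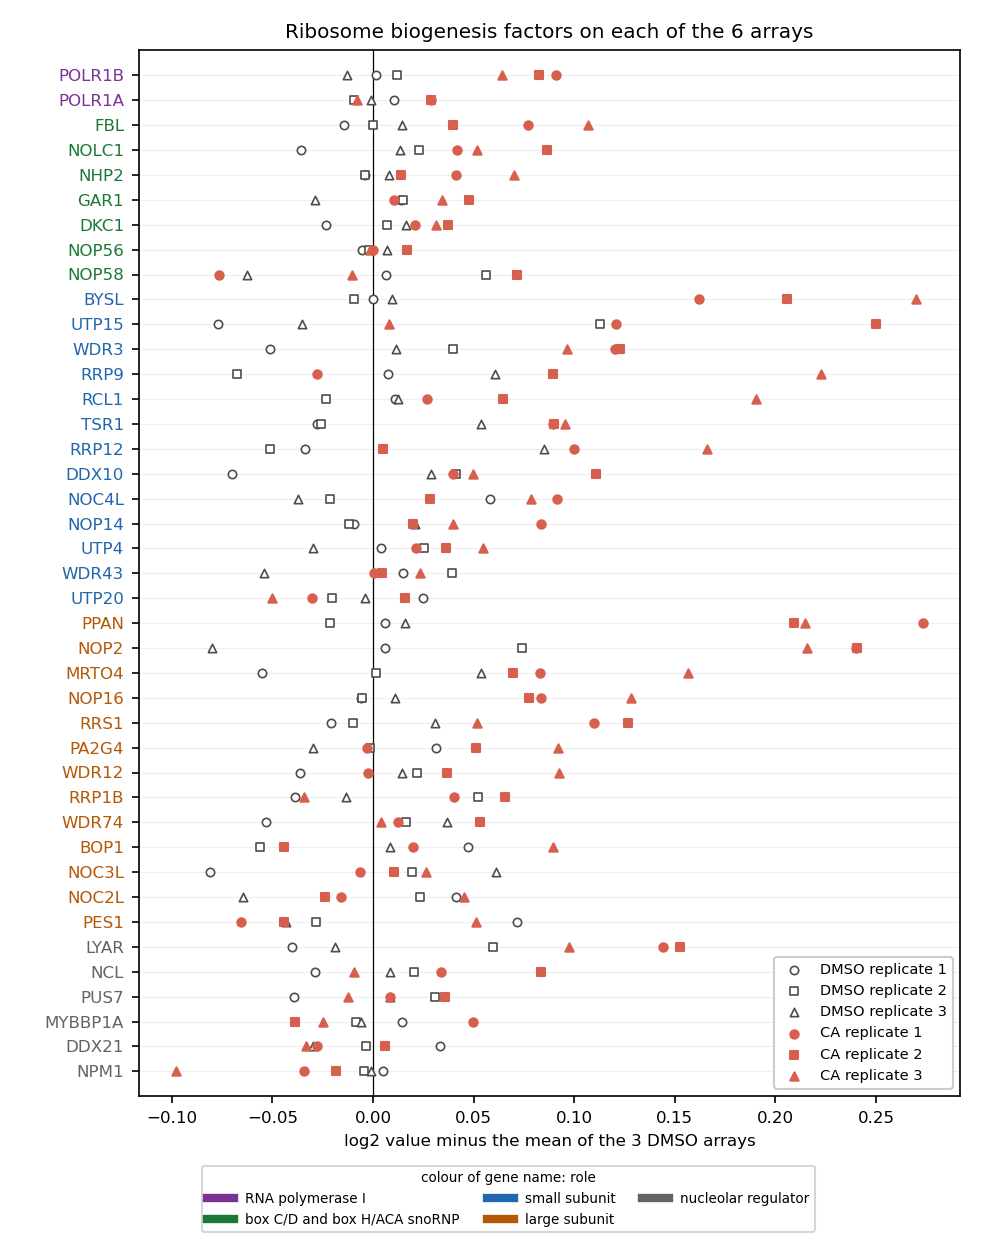
Each row is 1 ribosome biogenesis factor, and the horizontal axis gives its log2 value on each array minus the mean of the 3 DMSO arrays; open symbols are DMSO arrays, filled symbols CA arrays, and the colour of a name its role. The CA symbols of PPAN, BYSL and NOP2 lie apart to the right, while in most other rows the groups lie close together or overlap.

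Many of the genes share a feature of sequence. It cannot be taken as independent of the list, since many of its genes are known MYC targets. Their promoters, taken from the RefSeq table for GRCh38.p14 as the 250 bases before and the 50 after each start, were searched for CACGTG, the E-box that MYC with its partner MAX is known to bind, and which reads the same on both strands. Of the 41 factors 35 had an entry, and 17 of these (48.6%) held CACGTG, against 8.77% of 27305 genes with an entry and 10.9% of 15387 such genes on the array. Each of the 17 held the motif at 1 place. It lay within 40 bases of the start in 16 of 17, or 94.1%, while 27.7% of all CACGTG sites in the table did. The sites ranged from base -64 in LYAR to base 36 in NOP2, counting the first transcribed base as 1, and 5 lay before the start. The bound of 40 bases lies just past the last site, so the share within it is only a description. Other short motifs were also more frequent than in the table as a whole. CCGGAAG, a core of ETS factor sites, was found on either strand in 13 of 35 (37.1%, against 12.2% of all genes with an entry and 16.6% of those on the array), and CGCATGCG, a core of NRF1 sites, in 3 of 35 (8.57%, against 2.46% and 3.38%). The share with CCGGAAG was 42.4% in other pathway genes and 37.8% in ribosomal proteins. None of these 3 motifs contains another.

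The windows below show the E-box in capitals with up to 12 bases on either side, for the 6 factors with the smallest p among those that hold it, so that the place of the motif can be read beside their values. They are given 5′ to 3′ on the strand of the gene, with the first base of the motif at 29 in BYSL, 36 in NOP2, -64 in LYAR, 15 in MRTO4, 7 in FBL and 5 in RCL1. On the plus strand lie BYSL at chr6:41921515-41921544, MRTO4 at chr1:19251807-19251836 and RCL1 at chr9:4792936-4792965. On the minus strand lie NOP2 at chr12:6568242-6568268, LYAR at chr4:4290068-4290097 and FBL at chr19:39846356-39846385.
BYSL: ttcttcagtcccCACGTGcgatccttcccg
NOP2: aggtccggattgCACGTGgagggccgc
LYAR: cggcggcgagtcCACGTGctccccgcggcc
MRTO4: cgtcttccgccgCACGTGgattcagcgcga
FBL: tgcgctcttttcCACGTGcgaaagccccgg
RCL1: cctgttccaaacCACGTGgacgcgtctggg

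The changes of factors with and without the motif overlapped, and a difference between them was not tested. The median log2 change was 0.038 for the 17 with CACGTG (range -0.022 to 0.23) and 0.044 for the 18 with an entry and no CACGTG (-0.050 to 0.23). Of the 17 with it 13 lay above 0, and of the 18 without it 17 did. PPAN, with the largest change of all, held none, and neither did NPM1, with the lowest. UTP20, PES1, DDX21 and MYBBP1A, which also lay below 0, held it. By role, CACGTG was found in 7 of 12 small subunit factors with an entry, in 4 of 10 large subunit factors, in 4 of 6 nucleolar regulators, in 2 of 5 snoRNP proteins and in 0 of 2 polymerase subunits.

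The factors of the large ribosomal subunit held both of the largest changes. PPAN, a factor of early large subunit assembly, had log2 values of 9.58, 9.55 and 9.59 in DMSO and of 9.85, 9.78 and 9.79 in CA. Every CA value lay above every DMSO value, with a gap of 0.19 between the groups. The means were 9.57 ± 0.02 and 9.80 ± 0.04 (SD, n = 3 each), a log2 change of 0.23 or 17.5% (95% confidence interval 9.29% to 26.3%), with an adjusted p of 0.0923 in limma. Its probe set also lists PPAN-P2RY11, a read-through transcript with a neighbouring receptor gene, so the signal cannot be assigned to PPAN alone.

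NOP2, which methylates a cytosine of the large ribosomal RNA, had log2 values of 8.68, 8.75 and 8.59 in DMSO and of 8.91, 8.91 and 8.89 in CA. The CA arrays were tightly grouped above all DMSO arrays, with a gap of 0.14. The log2 change was 0.23 or 17.4% (7.54% to 28.3%, limma adjusted p = 0.160). MRTO4, NOP16 and RRS1, which act in large subunit maturation, had log2 changes of 0.10, 0.096 and 0.096, and for each the CA arrays lay above the DMSO arrays by at most 0.067.

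The groups of the other large subunit factors overlapped. BOP1, PES1 and WDR12 form the PeBoW complex, which is needed to process the large subunit precursor. PES1 had the lowest change of this role, with values of 8.97, 8.87 and 8.85 in DMSO and of 8.83, 8.85 and 8.95 in CA. The groups overlapped throughout, and the log2 change was -0.020 (-0.15 to 0.11). BOP1 and WDR12 had log2 changes of 0.022 and 0.042. The log2 changes of PA2G4, RRP1B, WDR74, NOC3L and NOC2L lay between 0.0018 and 0.047. Over the 13 measured large subunit factors the median log2 change was 0.042, and 12 were above 0 (92.3%, against 51.7% of all genes). For 5 (38.5%) all CA arrays lay above all DMSO arrays, against 11.8% of all genes.

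Small subunit factors had the highest median of the 5 roles, at 0.090 over 13 genes, with 12 above 0 (92.3%, against 51.7% of all genes). For 4 of them (30.8%) all CA arrays lay above all DMSO arrays, against 11.8% of all genes. BYSL, which is needed for late maturation of the small subunit, had the largest change of this role. Its log2 values were 9.33, 9.32 and 9.34 in DMSO and 9.49, 9.54 and 9.60 in CA. The DMSO arrays were almost identical, the CA arrays were all higher, and the gap was 0.15. The log2 change was 0.21 or 15.9% (7.24% to 25.2%, limma adjusted p = 0.143).

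WDR3, a component of the small subunit processome, had values of 10.95, 11.04 and 11.01 in DMSO and of 11.12, 11.12 and 11.09 in CA. The groups did not overlap, by 0.057, and the log2 change was 0.11 (0.0050 to 0.22, limma adjusted p = 0.411). TSR1 and RCL1, which act in small subunit maturation, had log2 changes of 0.092 and 0.094, also with no overlap between groups. UTP15 had the second highest change of this role, 0.13, but its groups overlapped and its interval was the widest of all the factors (-0.069 to 0.32).

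The remaining members of the processome and its partners overlapped between groups. RRP9, a protein of the U3 snoRNP, had a log2 change of 0.095, RRP12 one of 0.090, DDX10 one of 0.067 and NOC4L one of 0.066. NOP14, UTP4 and WDR43 had log2 changes of 0.048, 0.038 and 0.0096. UTP20 was the 1 small subunit factor below 0. Its values were 10.42, 10.37 and 10.39 in DMSO and 10.36, 10.41 and 10.34 in CA, with a log2 change of -0.022 (-0.13 to 0.083). These CA and DMSO values interleave.

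The catalytic core of RNA polymerase I was measured by its 2 largest subunits. POLR1B had log2 values of 10.26, 10.27 and 10.25 in DMSO and of 10.35, 10.34 and 10.32 in CA. The CA arrays lay above by 0.053, and the log2 change was 0.079 (-0.017 to 0.18, limma adjusted p = 0.516). The other 3 probe sets of POLR1B, all dimmer, gave log2 changes of -0.042, -0.038 and -0.031. POLR1A had values of 7.85, 7.83 and 7.83 in DMSO and of 7.86, 7.86 and 7.83 in CA, with overlapping groups and a log2 change of 0.017 (-0.081 to 0.11).

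Of 7 proteins of the snoRNPs, which guide the chemical modification of ribosomal RNA, 6 had a log2 change above 0. The largest was 0.075. FBL, the methyltransferase of the box C/D class, had log2 values of 12.96, 12.98 and 12.99 in DMSO and of 13.05, 13.02 and 13.08 in CA. The groups lay apart by 0.026 and the log2 change was 0.075 (-0.028 to 0.18, limma adjusted p = 0.564). NOLC1, a chaperone of snoRNPs, had values of 12.21, 12.27 and 12.26 in DMSO and of 12.29, 12.33 and 12.30 in CA. Its CA arrays lay above by 0.019, and the log2 change was 0.060 (-0.044 to 0.16).

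NOP56 and NOP58, the paired scaffold proteins of box C/D particles, had log2 changes of 0.0052 and -0.0051. NOP58 was the lowest of this role, with values of 12.46, 12.51 and 12.40 in DMSO and of 12.38, 12.53 and 12.45 in CA. Its groups overlapped fully. In the box H/ACA class, the pseudouridine synthase DKC1 had a log2 change of 0.030, its partner GAR1 one of 0.031, and NHP2 one of 0.042. For DKC1 and NHP2 the groups did not overlap, but the gaps were 0.0044 and 0.0057. Over the 7 snoRNP proteins the median log2 change was 0.031. For 4 of them (57.1%) all CA arrays lay above all DMSO arrays, against 11.8% of all genes. The probe sets of NOP56, DKC1, BOP1 and PPAN list other genes too; for NOP56 and DKC1 these are small RNA genes, some of them snoRNAs, that the platform table places with the host gene.

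The factors grouped here as nucleolar regulators went both ways, with 3 of 6 above 0 and a median log2 change of 0.0031. LYAR, a nucleolar protein that promotes cell growth, had log2 values of 10.41, 10.51 and 10.43 in DMSO and of 10.60, 10.61 and 10.55 in CA. The groups lay apart by 0.038, with a log2 change of 0.13 or 9.53% (1.14% to 18.6%, limma adjusted p = 0.373). Its second probe set gave 0.057.

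NPM1, or nucleophosmin, an abundant nucleolar chaperone that is often mutated in acute myeloid leukaemia, was the 1 factor whose CA arrays all lay below the DMSO arrays. Its values were 14.09, 14.08 and 14.08 in DMSO and 14.05, 14.06 and 13.98 in CA, with a gap of 0.014. The log2 change was -0.050 (-0.16 to 0.055, limma adjusted p = 0.704), and its other probe sets gave 0.024 and 0.040. NCL, or nucleolin, a major nucleolar RNA-binding protein, had a log2 change of 0.036, and the helicase DDX21 one of -0.018. MYBBP1A, a nucleolar repressor of transcription, had a log2 change of -0.0046. PUS7, a pseudouridine synthase placed in this group only by the grouping used here, had one of 0.011.

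**Figure D2:**
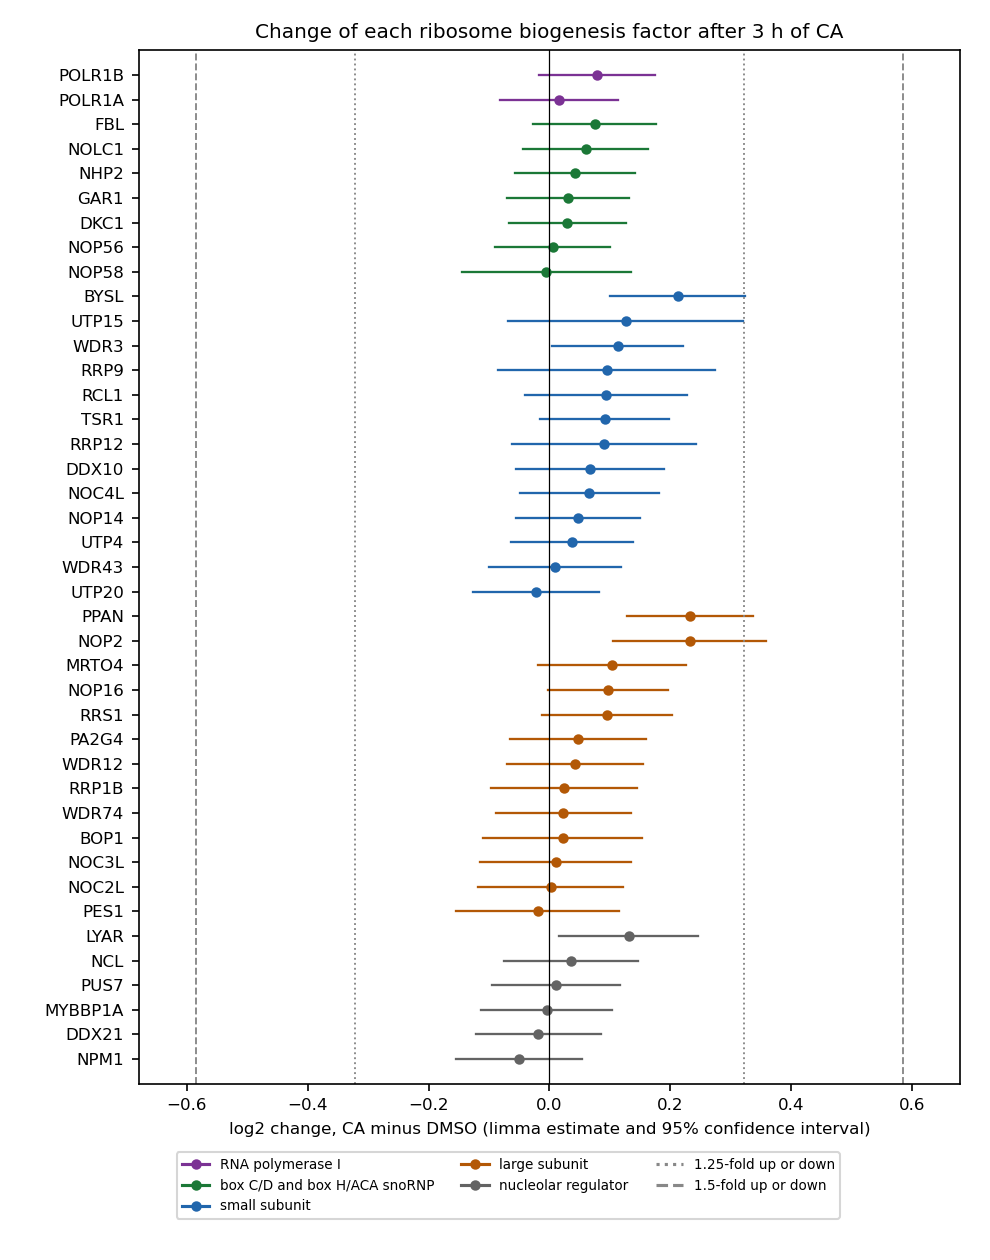
Points give limma's log2 change of each factor, CA minus DMSO (3 arrays each), bars the 95% confidence interval, and colours the role; dotted and dashed lines mark a 1.25-fold and a 1.5-fold change in either direction. All 41 intervals lie inside the dashed lines, and 3, those of BYSL, PPAN and NOP2, cross a dotted line.

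The values of the factors were also compared array by array. After subtracting each gene's mean over the 6 arrays, the median over the 41 factors was -0.040, -0.0098 and -0.017 on the DMSO arrays and 0.012, 0.027 and 0.025 on the CA arrays. The CA medians all lay above the DMSO medians. For all genes the same medians lay between -0.0054 and 0.0039 on 5 arrays and at 0.017 on CA replicate 3. The factors lay farthest from all genes on DMSO replicate 1 (-0.040 against -0.0047) and nearest on CA replicate 3 (0.025 against 0.017) or DMSO replicate 2 (-0.0098 against -0.0054). DMSO replicate 1 held the lowest of the 6 values for 19 of the 41 factors, and CA replicates 2 and 3 held the highest for 15 and 14. Without DMSO replicate 1 the median log2 change of the factors was 0.040 and 3 factors were higher at an unadjusted p, and without CA replicate 3 the median was 0.033 and 6 were higher. The medians over all genes were 0.0031 and -0.0016 in these fits, and the shares of all genes that were higher are not given here.

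For 26 factors more than 1 probe set measured the messenger RNA. Their 43 further probe sets had the same sign of change as the one used in 22 cases, and 19 of the 36 that were brighter than the median probe set did. None passed when all probe sets were tested (limma), and without adjustment 4 had a higher and 1 a lower level. The largest was a second probe set of NOC2L, with a log2 change of 0.38 (0.22 to 0.55, limma adjusted p = 0.140 over all probe sets), against 0.0018 at the brighter one. Further probe sets of RCL1, NOLC1 and MYBBP1A gave 0.19, 0.18 and 0.17, against 0.094, 0.060 and -0.0046. A dim one of PES1 gave -0.26. Probe sets of opposite sign were found for POLR1B, NOP56, WDR3, UTP4, RRP12, RCL1, TSR1, WDR12, WDR74, RRP1B, PA2G4, NCL, NPM1, MYBBP1A and DDX21. PPAN, BYSL and NOP2 had no further probe set.

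**Figure D3:**
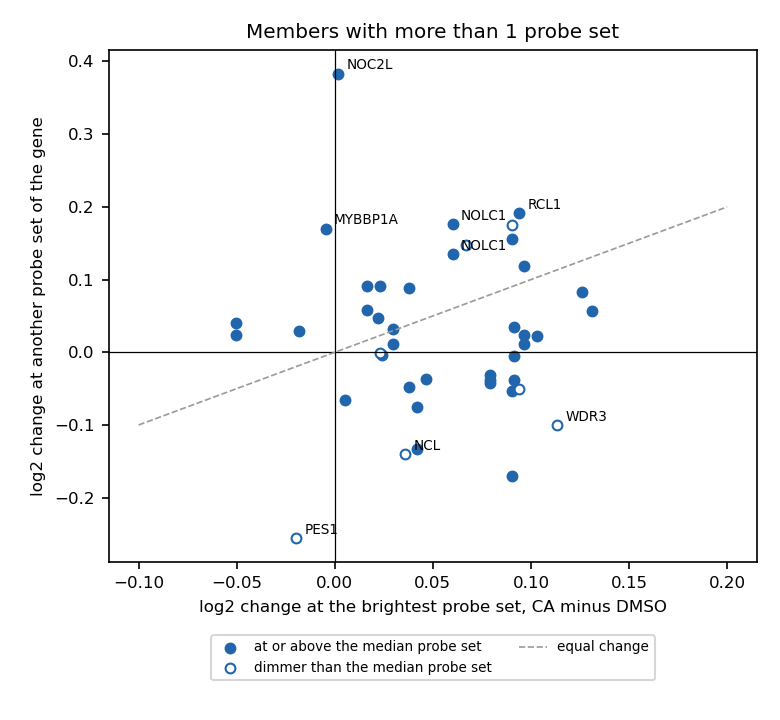
Each point is a further probe set of a factor: the horizontal axis gives the log2 change at the brightest probe set of the gene, the vertical axis that at the further one (CA minus DMSO), filled where the probe set is at least as bright as the median probe set. Of 43 points 22 share the sign of the brightest probe set, and NOC2L, at 0.38, lies farthest up.

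Other genes of the pathway, from lists of genes that are not among the 43, are given for comparison. Of 115 measured genes of the polymerase I machinery, small and large subunit assembly, snoRNPs and the nuclear exosome, 0 passed in limma. Their median log2 change was 0.047. Without adjustment 23 had a higher level (20%) and 3 a lower one (2.61%), against 7.1% and 4.5% of all genes. Their CA arrays all lay above the DMSO arrays for 43 genes (37.4%) and below for 6 (5.22%), against 11.8% and 7.53% of all genes. Among them, 39 further small subunit factors had a median of 0.064, with 8 higher (20.5%) and 0 lower. The 38 further large subunit factors had a median of 0.050, with 9 higher (23.7%) and 0 lower. The smallest p-values of the small subunit list belonged to IMP4 of the U3 snoRNP (0.18, limma adjusted p = 0.183) and NOB1 (0.22, 0.247). NOB1 makes the last cut of the small subunit RNA. Those of the large subunit list belonged to RRP8 and NLE1 (0.21 each, limma adjusted p = 0.184 and 0.195). Of these 115 genes 99 had a promoter entry, and 25.3% of those held CACGTG.

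Further polymerase I genes were centred near 0. Over 13 genes the median log2 change was -0.0047. At an unadjusted p 1 was higher and 1 lower (7.69% each), against 7.1% and 4.5% of all genes. The lower one was UBTF, a factor that organises ribosomal DNA for transcription, with a log2 change of -0.27 (limma adjusted p = 0.0508). It passed without dim probe sets (0.0121), with array weights (0.0373) and with an intensity trend (0.00588). It did not pass with centring (0.113), with the replicate number as a block (0.165) or with any 1 array left out (0.0969 to 0.265). Its 4 other probe sets gave values between -0.13 and 0.083, and the mean over its probe sets was -0.061 (0.792). POLR1E was the higher one at 0.14. SNU13 and NUFIP1 led 12 further snoRNP proteins and assembly factors at 0.15 and 0.13, with a median of 0.062. The 13 exosome genes had a median of 0.036, with EXOSC6 at -0.33 (limma adjusted p = 0.238) and EXOSC5 at 0.17 (0.327).

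Cytosolic ribosomal proteins, the parts that these factors assemble, lay near 0. Of 51 measured, 0 passed and 0 had an unadjusted p under 0.05 in limma, and the median log2 change was 0.0060. RPLP2 and RPL8 had the smallest p-values, at 0.13 and 0.062. CACGTG was in 6.67% of 45 of their promoters. MYC itself was 1.22-fold higher in CA (limma adjusted p = 0.0405), a call that was lost when any 1 array was left out (adjusted p between 0.0801 and 0.231). MYC was also lost with the replicate number as a block (0.151) and over all probe sets (0.129). It passed with an intensity trend (3.38e-05), without dim probe sets (0.0096) and with array weights (0.0276). It also passed with centring (0.0475) and with the mean of a gene's probe sets (0.0426). Its antagonist MNT had a log2 change of 0.17 (0.183), and none of the other measured partners passed.

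**Figure D4:**
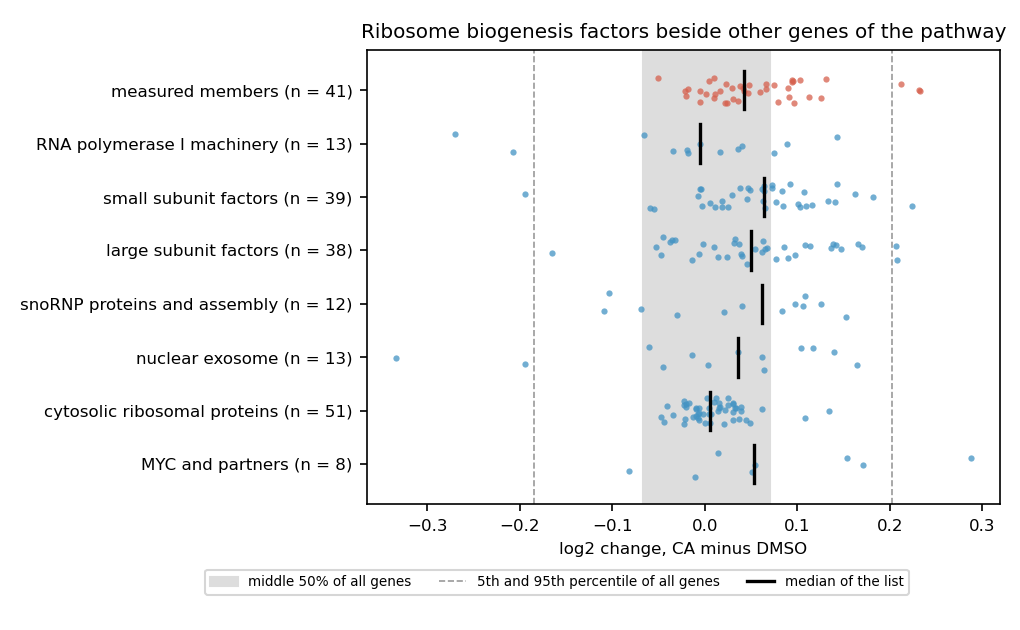
Each point is a gene, placed by its log2 change (CA minus DMSO) in the list named at the left, with the number measured; black bars are list medians, the grey band the middle 50% of all genes and dashed lines their 5th and 95th percentiles. The factors have a median of 0.042, the further small and large subunit factors 0.064 and 0.050, and the ribosomal proteins 0.0060.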

How the data were processed

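Cortistatin A and DMSO samples (3 each, grouped by their labels) were measured on Affymetrix U133 Plus 2.0 arrays from 100 ng of RNA. The authors deposited log2 values made with RMA and affy, per the submitters' processing notes; no version is given in the sources used here. RMA scales all arrays to 1 distribution. Precision is limited by having 3 arrays a group. Of 54613 non-control probe sets, 41091 carried 1 gene symbol, 1801 several and 11721 none, per the platform table; 41037 were matched to RefSeq by gene number, and no symbol needed an update. The brightest probe set stood for a gene, and for a factor it could list several symbols. Differences were tested with limma 3.58.1 in R 4.3.3 (lmFit, eBayes, no covariate) and adjusted over 19779 genes by Benjamini-Hochberg; "higher" or "lower" without adjustment means an unadjusted p under 0.05. The script was tested on simulated data. An exact permutation test of 3 against 3 cannot go below p = 0.1.

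The members and all gene lists were chosen with earlier results of these data known. Every factor is named; values per array are given for the 2 with the smallest p and the 1 with the lowest change in each role, and each other list is represented by its 2 genes of smallest p. Windows are shown for factors with the smallest p whose promoter holds CACGTG. Alternatives changed the variance model, array weights, centring, filter, probe set choice, replicate block and arrays left out.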

Additional observations from a re-analysis of the deposited data

How the results depend on the processing

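Of 604 changes of single factors recomputed under the alternatives, 564 kept their direction and side of the threshold, 5 came past it and 35, none of them called, turned sign in 20 factors. In limma with an intensity trend and robust prior 3 factors and 547 genes passed (451 of them higher, 82.4%, against 93.8% in the fit reported), with 12 factors higher and 1 lower without adjustment. Without dim probe sets 2 factors and 352 genes passed and 9 factors were higher. Without probe sets ending in _x_at, _s_at or _a_at 74 genes passed, 3 factors were higher, and the median log2 change was 0.022 over 34 factors. Testing all probe sets left 3 factors higher. The share of all genes at an unadjusted p is not given here for any alternative. Centring arrays on their medians gave a median of 0.057, with 0.0187 over all genes. With a single array left out, the genes that passed ranged from 1 to 112 (5, 8 and 1 without DMSO replicates 1, 2 and 3, and 6, 9 and 112 without CA replicates 1, 2 and 3), no factor passed, and 3 to 6 factors were higher. With the replicate number as a block 6 genes passed, 0 of them factors, and MYC was lost (adjusted p = 0.151). The fit reported does not pair samples by number, and whether the numbers pair them could not be settled. Correlations of same-numbered deviations were 0.0413, 0.2225 and 0.2476. For replicates 2 and 3 they were the highest, with -0.2577 for DMSO 2 with CA 3 and -0.1773 for DMSO 3 with CA 2. CA replicate 1 correlated best with DMSO replicate 2 (0.0929).

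Log2 changes that turned sign were, with array weights, NOC2L -0.0152 and MYBBP1A 0.0053; with centring, NOP58 0.0098 and MYBBP1A 0.0103; without the suffixed probe sets, POLR1B -0.0422, WDR3 -0.1002, RRP12 -0.0531, RCL1 -0.0499, TSR1 -0.0385, PA2G4 -0.0374 and NCL -0.1402; and with the mean of a gene's probe sets, POLR1B -0.008, NOP56 -0.0305, WDR12 -0.0552, NCL -0.0521, NPM1 0.0048, MYBBP1A 0.0828 and DDX21 0.0057. With 1 array left out, PES1 ranged from -0.055 to 0.0162, WDR74 from -0.0035 to 0.0415, NOC3L from -0.0302 to 0.0408, MYBBP1A from -0.0318 to 0.0126, PUS7 from -0.0089 to 0.0261, NOP58 from -0.0435 to 0.0306, BOP1 from -0.012 to 0.0549, WDR43 from -0.0175 to 0.0294, NOC2L from -0.0304 to 0.0224 and NOP56 from -0.0007 to 0.0088. Without the suffixed probe sets, WDR3, NCL and RCL1 were read at mean log2 values of 3.93, 3.96 and 3.27, below the median probe set at 5.05. RRP12 and POLR1B were read at 5.32 and 6.82, and TSR1 and PA2G4 at 8.76 and 9.69. The cause of the sign turns was not tested. Background correction and slide could not be varied from the processed table.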
